A study of Mus musculus with 24 samples.

Results

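Airway mucosal defence secretions are described here by 7 genes, *Pigr*, *Bpifa1*, *Bpifb1*, *Muc5b*, *Tff2*, *Reg3g* and *Scgb3a1*, of the 23420 genes listed for neonatal mouse lungs in which a planar cell polarity gene had been removed from the distal epithelium. The genes were chosen by their symbols on the mutant-over-control values of these same lungs, so those values are given as a description and no test is made on them. RNA was measured in 24 left lung lobes, 3 for each of 8 groups. The mutants were Sox9Cre/+; Vangl2f/f or Sox9Cre/+; Ror2f/f mice at postnatal day 2 (P2) or 5 (P5), and each mutant group had its own 3 control lungs of the same age, labelled WT. Cre was expressed from the *Sox9* locus, whose product marks the distal lung epithelium during development, whereas the RNA came from the whole lobe with its airways, mesenchyme, vessels and blood. A lower level can therefore reflect fewer cells of a type or less RNA per cell, which cannot be told apart here. The genotype fields of the *Vangl2* mutants at P5 and of the *Ror2* mutants at P2 name the other gene. Groups followed the sample titles. The titles of the *Vangl2* controls also name *Vangl1*.

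The conducting airways are lined by club, multiciliated, goblet and basal cells, whose secretions trap and kill inhaled microbes before they reach the alveoli. Gel-forming mucins give the mucus its structure, BPI fold proteins and C-type lectins act on bacteria or on the liquid layer, and the polymeric immunoglobulin receptor carries IgA from the tissue into the lumen. In the mouse most of these products are made by secretory cells of the larger airways and by submucosal glands. The gas exchange region, where Sox9-Cre removes the floxed gene, makes surfactant instead. The paper also describes Sox9-Cre as broadly expressed, and whether airway secretory cells lost the gene is not shown by these data.

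Values below are normalized counts, that is, the reads of a gene divided by a size factor of the lung. Each of the 4 mutant and control sets was scaled separately, so a level set across sets carries that limit. Reads on genes numbered 16178031 to 21546673 in 23 lungs, with a median of 19452608. Control replicate 1 of the *Ror2* set at P5 had 13823693. That lung had no reads on any of the well expressed genes of chromosomes 6, 7, 8, 9 and X and on 71.4% of those of chromosome 5, so its values on these chromosomes were set to missing, which removed it for *Muc5b* and *Reg3g*. The summed level of 7 alveolar type II markers lay between 176521 and 482967 in the 23 other lungs (not summed in that control lung).

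As a check of the labels, *Vangl2* itself was counted at 249, 302 and 281 in the P2 control lungs and at 241, 224 and 173 in the *Vangl2* mutants. At P5 it was 369, 314 and 292 in controls against 170, 148 and 166 in mutants, groups that did not overlap (log2 fold change -1.003, standard error 0.18, limma adjusted p = 0.0604). *Ror2* was counted at 451, 581 and 519.8 in the P2 control lungs and at 479, 349 and 366 in the *Ror2* mutants, and at P5 at 526, 368 and 597 against 362, 440 and 521, so both pairs of groups overlapped. In the mutants whose genotype fields name the other gene, that gene was counted too. *Ror2* was at 611, 478 and 487 in the P5 *Vangl2* controls against 541, 351 and 273 in mutants (log2 fold change -0.48). *Vangl2* was at 270, 291 and 245 in the P2 *Ror2* controls against 208, 251 and 236 in mutants (-0.21). Both pairs overlapped. In its own sets *Ror2* changed by -0.38 at P2 and -0.16 at P5, so its counts do not settle the labels. None of these differences passed an adjusted p of 0.05. The *Ror2* gene is also transcribed outside the epithelium.

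The 7 genes lie on 6 chromosomes of the mouse genome (mm10). *Bpifa1* (chr2:154142880-154149219) and *Bpifb1* (chr2:154190818-154220369) are neighbours in a cluster of BPI fold genes. *Pigr* lies at chr1:130826684-130852249, *Reg3g* at chr6:78466269-78468872, *Muc5b* at chr7:141839070-141873084, *Scgb3a1* at chr11:49663610-49665118 and *Tff2* at chr17:31141049-31144282.

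RefSeq promoters (GRCm38.p6, the same assembly as mm10) were matched for 5 of the 7 genes, at 6 start sites. No entry was matched for *Muc5b* and *Tff2*. The 250 bases before the start are printed for 4 genes, 5′ to 3′ on the strand of the gene, because *Reg3g* and *Scgb3a1* were high or low in the same lungs, whereas *Pigr* and *Bpifa1* were not always so. Capitals mark matches to the motifs searched. The windows are chr1:130826434-130826683 (plus strand), chr2:154142630-154142879 (plus), chr6:78468875-78469124 (minus) and chr11:49663345-49663594 (plus).
Pigr: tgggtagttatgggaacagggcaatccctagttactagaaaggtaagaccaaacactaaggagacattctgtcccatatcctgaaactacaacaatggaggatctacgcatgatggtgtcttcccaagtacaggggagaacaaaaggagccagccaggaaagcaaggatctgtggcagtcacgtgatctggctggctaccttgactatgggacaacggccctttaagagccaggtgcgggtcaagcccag
Bpifa1: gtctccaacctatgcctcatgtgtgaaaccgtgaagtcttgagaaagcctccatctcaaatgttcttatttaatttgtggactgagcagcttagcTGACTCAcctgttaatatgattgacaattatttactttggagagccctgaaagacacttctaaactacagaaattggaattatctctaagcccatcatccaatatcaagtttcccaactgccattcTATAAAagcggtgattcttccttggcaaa
Reg3g: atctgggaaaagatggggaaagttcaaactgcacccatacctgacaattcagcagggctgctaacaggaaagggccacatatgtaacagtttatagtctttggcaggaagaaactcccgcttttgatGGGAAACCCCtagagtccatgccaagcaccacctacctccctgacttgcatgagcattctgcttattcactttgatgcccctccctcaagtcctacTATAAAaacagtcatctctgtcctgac
Scgb3a1: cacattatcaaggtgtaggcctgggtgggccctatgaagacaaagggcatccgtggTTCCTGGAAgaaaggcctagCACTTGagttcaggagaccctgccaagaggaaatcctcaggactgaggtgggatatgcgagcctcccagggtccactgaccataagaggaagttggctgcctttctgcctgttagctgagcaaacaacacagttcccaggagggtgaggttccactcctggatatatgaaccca

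The motifs were a TATA box (TATAAA, on the strand of the gene) and, on both strands, those of STAT factors (TTCNNNGAA), AP-1 (TGANTCA), C/EBP (TTGCNNAA), FOXA (TGTTTAC), NKX2-1 (CAAGTG) and NF-kappaB. The TATA box was present in *Bpifa1*, from 29 to 24 bases before the start, and in *Reg3g*, from 27 to 22 bases before it, and in 7.59% of all 32851 promoters of this length. The STAT motif, held by 7.02% of promoters, was found in *Scgb3a1* and at the second start of *Bpifb1*. The NF-kappaB motif, held by 7.25%, was found in *Reg3g* and as 2 overlapping matches on opposite strands at the *Bpifb1* start nearest the gene's 5′ end. AP-1 (6.75% of promoters) matched in *Bpifa1* and NKX2-1 (11.6%) in *Scgb3a1*. No motif searched was present in the *Pigr* window, and the C/EBP and FOXA letters (9.56% and 3.17% of promoters) were in none of the 6. These are matches of letters, and no motif was shared by *Reg3g* and *Scgb3a1* in these windows.

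*Pigr*, the polymeric immunoglobulin receptor, moves IgA and IgM across the epithelium and is shed into the lumen as secretory component. At P2 it was counted at 21.1, 19.9 and 28.7 in the 3 *Vangl2* control lungs and at 459, 364 and 439 in the *Vangl2* mutants. The control lungs lay close to each other and far under every mutant lung. The means were 23.2 ± 4.79 and 421 ± 50.1 (SD, n = 3 each), an 18.1-fold difference. At P5 the controls were at 125, 18.8 and 72.6 and the *Vangl2* mutants at 1067, 351 and 773, again without overlap, though the controls themselves differed 6.65-fold. The means were 72.1 ± 53.1 and 730.4 ± 359.5.

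*Pigr* in the *Ror2* set at P5 was counted at 14.9, 20.1 and 18.9 in controls and at 282, 252 and 92.6 in mutants. The groups did not overlap, and the means differed 11.6-fold, 17.95 ± 2.69 against 209 ± 102. At P2 the *Ror2* controls were at 36.1, 48.7 and 461 and the mutants at 167, 323 and 33.6. There the highest and the lowest *Pigr* values of the 6 lungs were a control and a mutant, and the sign of the log2 fold change, 0.38 (standard error 1.496), turned to -0.30, -0.08 and -0.32 without control replicate 1, control replicate 2 or mutant replicate 2. Across all 24 lungs *Pigr* spanned 71.5-fold, the narrowest range among the 5 genes that were above 0 in every lung with a value.

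*Bpifa1* and *Bpifb1* encode BPI fold proteins, secreted lipid-binding proteins of the upper and larger airways, of which BPIFA1 (SPLUNC1) also lowers the surface tension of the airway liquid. *Bpifa1* was counted at 0, 0.95 and 2.87 in P2 *Vangl2* controls and at 29.97, 19.7 and 4.07 in mutants, and at 0, 0 and 5.04 against 26.6, 11.2 and 76.8 at P5. Neither pair of groups overlapped. The *Ror2* controls at P2 were at 0, 11.95 and 22.4 and the *Ror2* mutants at 1.13, 17.1 and 0, groups that overlapped. At P5 the 3 *Ror2* control lungs had no read and the mutants were at 6.34, 9.40 and 0.95, the last of them a single read. Against a floor of 3 reads over the 3 control lungs the mutant mean was at least 5.71-fold higher. *Bpifa1* was at 0 in 8 of 24 lungs.

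*Bpifb1* was counted at 33.7, 97.7 and 118 in P2 *Vangl2* controls and at 1645, 646 and 514 in mutants. Every mutant lung lay above every control, and the means were 83.1 ± 43.9 and 935 ± 619 (11.3-fold). At P5 the *Vangl2* controls were at 520.0, 7.05 and 193 and the mutants at 1889.7, 673 and 1694. The groups were again apart, but the gap between the highest control and the lowest mutant was small beside the 73.7-fold range of the controls. In the *Ror2* set at P5 the controls were at 16.8, 5.02 and 21.8 and the mutants at 519, 611 and 182. This was the highest log2 fold change of the 7 genes in that set, 4.85 (standard error 0.80), and 30.1-fold between the means. At P2 the *Ror2* controls were at 12.4, 182 and 1275 and the mutants at 103, 144 and 13.7, so all 3 mutants lay within the range of the controls, and the log2 fold change of -1.28 became 0.29 without control replicate 3.

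*Muc5b* encodes the gel-forming mucin that is needed for mucociliary clearance in mouse airways. At P2 it was counted at 26.3, 1424 and 1304 in *Vangl2* controls and at 6148, 3679 and 1251 in mutants. Control replicate 1 was far under the other 2 controls, and mutant replicate 3 lay at the level of those 2. At P5 the *Vangl2* controls were at 280.1, 25.9 and 555 and the mutants at 3046, 2027 and 4681, groups 11.3-fold apart in their means and without overlap. The *Ror2* set at P2 went the other way in its means, with controls at 14.4, 4395 and 4502 and mutants at 29.3, 35.1 and 95.6. All 3 *Ror2* mutants were low, and so was control replicate 1, which was under each of them. At P5 the 2 *Ror2* controls with a value were at 6.02 and 6.95 and the mutants at 167, 126 and 8.59. Mutant replicate 3 was little above the controls.

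*Tff2*, a trefoil peptide secreted together with mucins, was counted at 0, 44.6 and 57.5 in P2 *Vangl2* controls and at 115, 153 and 36.7 in mutants. It was at 6.39, 5.88 and 32.2 against 244, 157 and 512 at P5. The P2 groups overlapped through mutant replicate 3, while the P5 groups stood 20.5-fold apart in their means. In the *Ror2* set at P2 the controls were at 0, 129 and 143 and the mutants at 4.51, 3.79 and 4.20. At P5 the controls were at 0.93, 3.01 and 0.99 and the mutants at 4.23, 9.40 and 0.95. These last values are a few reads a lung, and the groups overlapped.

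*Reg3g* encodes a secreted C-type lectin that kills Gram-positive bacteria. At P2 it was counted at 8.43, 1129 and 1233 in *Vangl2* controls and at 3875, 3399.8 and 1188 in mutants. As for *Muc5b*, control replicate 1 was low and mutant replicate 3 lay among the other controls. At P5 the *Vangl2* controls were at 56.6, 25.9 and 479 and the mutants at 3460.5, 1673 and 2881, with no overlap and 14.3-fold between the means. The P2 controls of the *Ror2* set were at 9.28, 2733 and 7471 and the mutants at 51.8, 156 and 55.7. Control replicate 3 had the highest *Reg3g* count of all 23 lungs with a value, and control replicate 1 of the same group was under every mutant. At P5 the 2 *Ror2* controls were at 13.1 and 2.98 and the mutants at 150.1, 193 and 6.68, which overlapped through mutant replicate 3.

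*Scgb3a1* encodes a small secretoglobin of the larger airways. It was counted at 112, 4712 and 4337 in P2 *Vangl2* controls and at 13225, 14443 and 4806 in mutants. Mutant replicate 3 was only just above control replicate 2. At P5 the controls were at 172, 50.5 and 2490.1 and the mutants at 14542, 7238 and 20418, which gave the highest log2 fold change of the 7 genes in any set, 5.52 (standard error 1.71). The *Ror2* set at P2 had controls at 34.0, 10596 and 13839 and mutants at 222, 351 and 179, so the means were 8156 ± 7219 and 250.5 ± 89.6. At P5 the *Ror2* controls were at 26.1, 2.01 and 24.8 and the mutants at 752, 958 and 33.4. The last of these was near the controls.

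**Figure D1:**
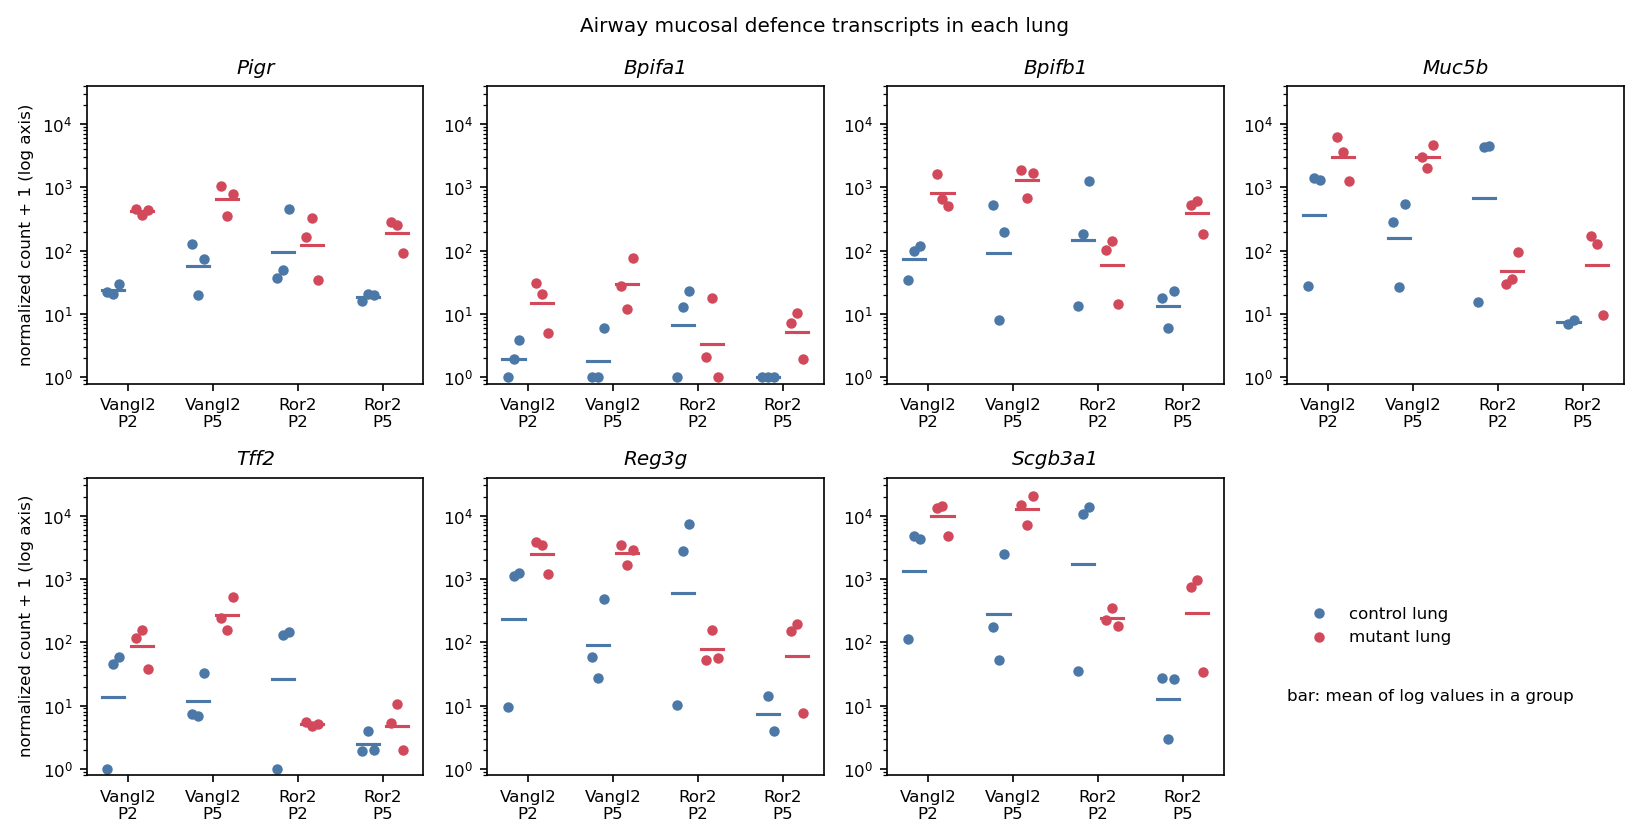
Normalized count plus 1 (log axis) of the 7 genes in each of the 24 lungs, control lungs in blue and mutant lungs in red, with a bar at the mean of the log values of each group and no point where a value was set to missing. In the *Vangl2* set at P5 every red point is above every blue point in all 7 panels, while in the *Ror2* set at P2 the groups overlap in each of them.

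Per gene, all 3 *Vangl2* mutant lungs lay above all 3 controls for 4 of 7 genes at P2 (*Pigr*, *Bpifa1*, *Bpifb1* and *Scgb3a1*), where 14.6% of all tested genes did so, and for 7 of 7 at P5, where 13.2% did. In the *Ror2* sets this held for 0 of 7 at P2 (13.4% of tested genes) and for 5 of 7 at P5 (15.6%), *Tff2* and *Reg3g* being the exceptions. The genes were picked on these contrasts, so the counts carry no weight of their own. The log2 fold changes, on log2(normalized count + 1), had a median of 3.04 (2.66 to 4.13) in *Vangl2* mutants at P2 and of 4.25 (3.54 to 5.52) at P5. In *Ror2* mutants the median was -2.36 (-3.83 to 0.38) at P2 and 3.03 (0.93 to 4.85) at P5, where it was also 3.03 with *Bpifa1* at its lower bound. The medians over all tested genes were 0.0012, 0.0031, -0.0059 and 0.0042 in the same order. All 7 genes passed the filter on low values in the first 3 sets, and 6 did in the *Ror2* set at P5, where *Bpifa1* did not.

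Single control lungs set much of these values for *Scgb3a1*, *Reg3g*, *Muc5b* and *Tff2*. Without control replicate 1 of the *Vangl2* set at P2, the log2 fold changes of the 4 genes fell to 1.10, 1.08, 1.16 and 0.76, from 2.88, 3.41, 3.04 and 2.66. Without control replicate 1 of the *Ror2* set at P2 they went from -2.84, -2.94, -3.83 and -2.36 to -5.65, -5.86, -6.56 and -4.72, and 3 of 3 mutants were then below both remaining controls. Without mutant replicate 3 of the *Ror2* set at P5 they were 6.05, 4.52, 4.29 and 1.57, from 4.51, 3.03, 2.98 and 0.93. *Pigr* was less dependent on any lung in the *Vangl2* set at P2, where leaving out each in turn gave 4.03 to 4.29, and in the *Ror2* set at P5, where it gave 3.03 to 3.83. For *Bpifb1* the ranges were 2.92 to 3.81 and 4.27 to 5.39 in those 2 sets. In the *Vangl2* set at P5 the ranges were wider, 2.78 to 4.12 for *Pigr* and 2.02 to 5.03 for *Bpifb1*. Both were lowest there without control replicate 2.

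Ordered by their mean, the *Pigr* groups ran from *Vangl2* mutants at P5 (730.4) and P2 (421) through *Ror2* mutants at P5 (209), *Ror2* controls at P2 (182), *Ror2* mutants at P2 (175), *Vangl2* controls at P5 (72.1) and at P2 (23.2) to *Ror2* controls at P5 (17.95). Neighbours in this order overlapped in their lungs, apart from the *Vangl2* mutants at P2 and the *Ror2* mutants at P5. The *Scgb3a1* order was *Vangl2* mutants at P5 (14066) and P2 (10825), *Ror2* controls at P2 (8156), *Vangl2* controls at P2 (3053) and P5 (904), *Ror2* mutants at P5 (581) and P2 (250.5) and *Ror2* controls at P5 (17.6). Only the last of these neighbouring pairs did not overlap. The *Ror2* controls at P2 were thus the third highest for *Scgb3a1* and their own lungs lay as far apart as 34.0 and 13839. Per kilobase of exon, *Scgb3a1* was the most abundant of the 7 genes in every group, at 29.5 to 23522 normalized counts per kilobase, and *Bpifa1* was the least abundant in 7 of the 8 groups, *Muc5b* taking its place in the *Ror2* mutants at P2.

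The lungs fell into a different order for the mucin group than for *Pigr*. Each lung was expressed as its log2 deviation from the mean of its own control lungs, and genes were compared by the root mean square difference of these deviations over the lungs. Among the 16722 other genes tested in all 4 sets, the gene nearest to *Muc5b* was *Reg3g* (0.85), the nearest to *Scgb3a1* was *Reg3g* (1.06) and the nearest to *Tff2* was *Reg3g* (1.14). For *Reg3g* the 3 nearest genes were *Muc5b*, *Scgb3a1* and *Tff2*, and for *Muc5b* they were *Reg3g*, *Scgb3a1* and *Tff2*, all of them among the 7. *Tff2* had *Cdhr1*, a cadherin-related gene, as its 3rd nearest (1.21), and *Scgb3a1* had *Bpifb1* (1.65). *Pigr* was nearest to *Orm1*, which encodes an acute phase glycoprotein (0.84), *Cxcl17*, a mucosal chemokine (0.91), and the kallikrein *Klk10* (0.93). *Bpifa1* was not tested in all 4 sets and was not compared in this way. *Bpifb1* was nearest to *Pigr* (1.21), *Cxcl17* (1.25) and *Retnla* (1.35). The rank depended on the gene it was taken from. *Reg3g* ranked 3371 from *Pigr* and *Muc5b* ranked 5544. *Pigr* in turn ranked 21 from *Reg3g*, 49 from *Muc5b*, 19 from *Scgb3a1* and 207 from *Tff2*, at the same distances. The median gene lay at 2.47 from *Pigr* and at 3.62 from *Scgb3a1*. This is a description of 24 lungs in which the same libraries carry all genes. The 7 genes were chosen on changes in these same lungs, so their nearness to each other carries no weight of its own.

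**Figure D2:**
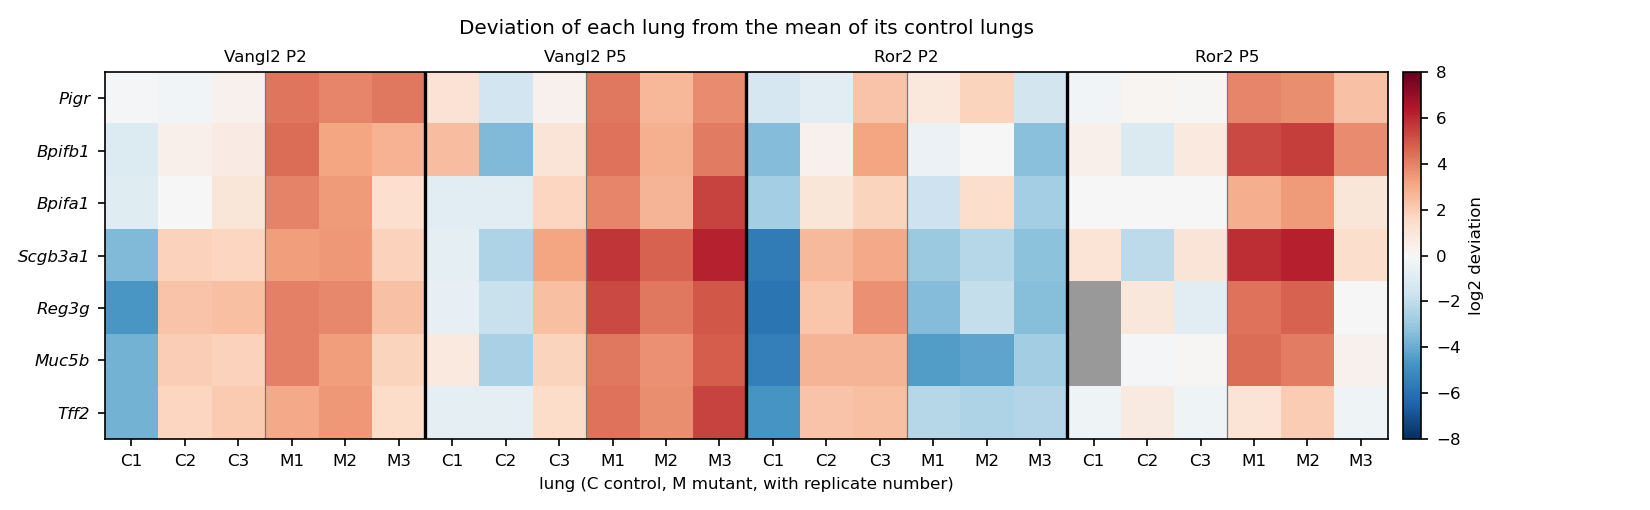
Deviation of each lung from the mean of the control lungs of its set, on log2(normalized count + 1), for the 7 genes (rows) in 24 lungs (columns), with red above and blue below the control mean and grey where the value was set to missing. In the P2 control lungs of both sets the 4 lower rows are blue in control replicate 1 and red in control replicates 2 and 3, whereas *Pigr* is pale in the *Vangl2* P2 controls. The 4 rows differ in sign in some P5 lungs, such as *Vangl2* control replicate 1, where *Muc5b* is at 0.80 and *Scgb3a1* at -0.70.

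The ratio of *Scgb3a1* to *Reg3g* within a lung does not depend on the size factor. It had a median of 4.17 and quartiles of 3.31 and 4.98 over 23 lungs, while *Scgb3a1* itself spanned 10167-fold over 24 lungs and *Reg3g* 2510-fold over 23. The extremes of the ratio, 0.154 and 13.2, came from lungs with 13.1 and 8.43 *Reg3g* counts. For *Scgb3a1* to *Muc5b* the median was 3.57 and the quartiles 2.38 and 4.42. The ratio of *Scgb3a1* to *Pigr* ranged 2366-fold, from 0.100 to 237, with quartiles of 1.36 and 29.1. *Bpifb1* to *Pigr* ranged 19.6-fold. The lungs with little *Scgb3a1* thus had little *Reg3g* and *Muc5b* too, whether they were controls or mutants, and this did not hold for *Pigr*. In *Vangl2* control lungs at P2, *Scgb3a1* was 112 in replicate 1 and 4712 in replicate 2, while *Pigr* was 21.1 and 19.9 in the same 2 lungs.

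**Figure D3:**
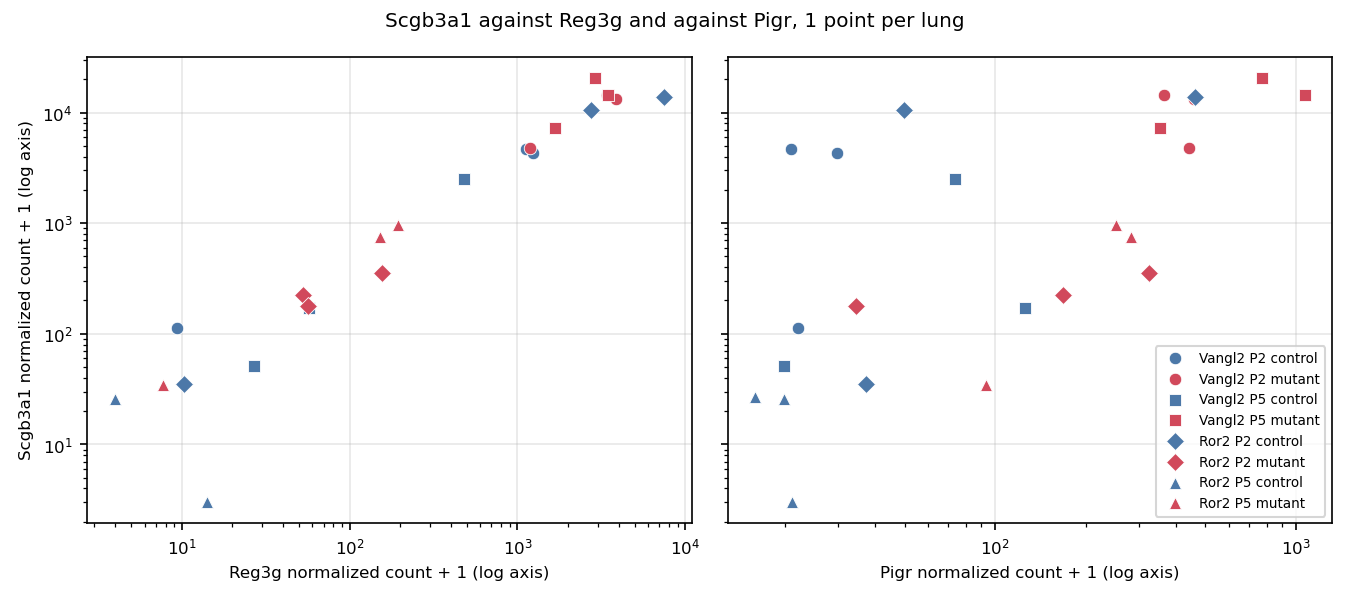
*Scgb3a1* against *Reg3g* (left, 23 lungs) and against *Pigr* (right, 24 lungs), normalized count plus 1 on log axes, 1 point per lung, control lungs in blue and mutant lungs in red with a symbol for each set. The left points follow a narrow diagonal through controls and mutants alike, apart from the *Ror2* P5 control lung at 2.01 *Scgb3a1* counts. At the right, lungs with *Pigr* between 19.9 and 48.7 hold *Scgb3a1* from 2.01 to 10596.

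The 9 club cell markers summed to 147960 to 186669 in P2 *Vangl2* controls and to 260503 to 305015 in mutants, and to 69327 to 127923 against 216473 to 262615 at P5. In the *Ror2* sets they summed to 142535 to 219942 against 179178 to 311355 at P2 and to 88372 to 95459 against 153413 to 285386 at P5. Their sum was thus higher in every mutant than in every control lung in 3 of the 4 sets, the exception being *Ror2* at P2. In the P2 *Vangl2* controls the lung with 112 *Scgb3a1* counts had the highest club sum, 186669. Most of that sum was 1 marker, *Scgb1a1*, at 119565. Another club marker, *Scgb3a2*, was lowest in that lung, at 16517 against 28723 and 28854 in the other controls. Among the P2 *Ror2* lungs the control with 34.0 had the lowest, 142535, and the 3 mutants, with 179 to 351, had 179178 to 311355. The 12 multiciliated cell markers summed to 7083 to 9821 in P2 *Vangl2* controls against 9657 to 15755 in mutants, and to 4213 to 8199 against 10721 to 12381 at P5. In the *Ror2* sets they summed to 5985 to 11326 against 7003 to 11284 at P2 and to 4176 to 5013 against 6341 to 9757 at P5, so every mutant was above every control in both P5 sets and the P2 groups overlapped. The 6 airway basal cell markers summed to 368 to 422 against 644 to 1011 in the *Vangl2* set at P2 and to 118 to 290.2 against 544 to 1653 at P5. They summed to 266 to 547 against 359.5 to 658 in the *Ror2* set at P2 and to 52.6 to 83.9 against 123 to 179 at P5. The basal sums, like the club sums, were higher in every mutant than in every control lung in the 3 sets other than *Ror2* at P2.

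The P2 control lungs that were low for the mucin group also had the lowest goblet marker sums among the controls of their sets. The 9 goblet markers, which all belong to the mucosal lists used below, summed to 339 in control replicate 1 of the *Vangl2* P2 set against 525 and 548 in the other 2 controls, and to 472 against 1049.6 and 1694 in the *Ror2* P2 controls. The mutants of these sets were at 501 to 1654 and at 519.5 to 971. Single markers did not all follow the sum. In the *Vangl2* controls at P2, *Agr2* was at 34.8 in replicate 1 against 121 and 130, while *Muc5ac* was at 91.6 against 101 and 86.2. In the *Vangl2* controls at P5 the goblet sum was 740 where *Muc5b* was 280.1 and 313 where *Muc5b* was 555. Of the 740, *Itln1* alone made up 346. The 6 gland serous markers summed to 398 to 714.5 against 976 to 2152 in the *Vangl2* set at P2 and to 333 to 602 against 1485 to 4464 at P5. In each of these lungs 1 marker, *Ltf*, made up most of the sum. *Ltf* was at 387 to 684 against 955 to 2093 at P2 and at 316 to 576 against 1480 to 4392 at P5. It is also known as a neutrophil granule gene, so the sum is not particular to serous cells. In the *Ror2* sets the 6 markers summed to 589.9 to 3578 against 564 to 922 at P2 and to 143 to 298 against 207 to 410.2 at P5. There *Bpifb9b* and *Prol1* were at 0 in all lungs with a value. *Prol1* was also at 0 in all *Vangl2* control and mutant lungs, and *Bpifb9b* in those at P2. The 12 stomach and gut markers stayed between 127 and 389 in all lungs with a value and the 5 oesophagus markers between 5.69 and 51.7, with *Cdx2* and *Crct1* each at 0 in every lung of 7 of the 8 groups. The 9 neutrophil markers summed to 3255 to 5028 against 8554 to 13313 in the *Vangl2* set at P2, to 3434 to 4633 against 9425 to 21157 at P5, to 5002 to 24866 against 6222 to 8012 in the *Ror2* set at P2 and to 1687 to 2185 against 2072 to 4378 at P5. The lung at 24866, *Ror2* P2 control replicate 3, was also the highest of its set for all 7 genes. The part of these cells in the values of the 7 genes was not tested.

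**Figure D4:**
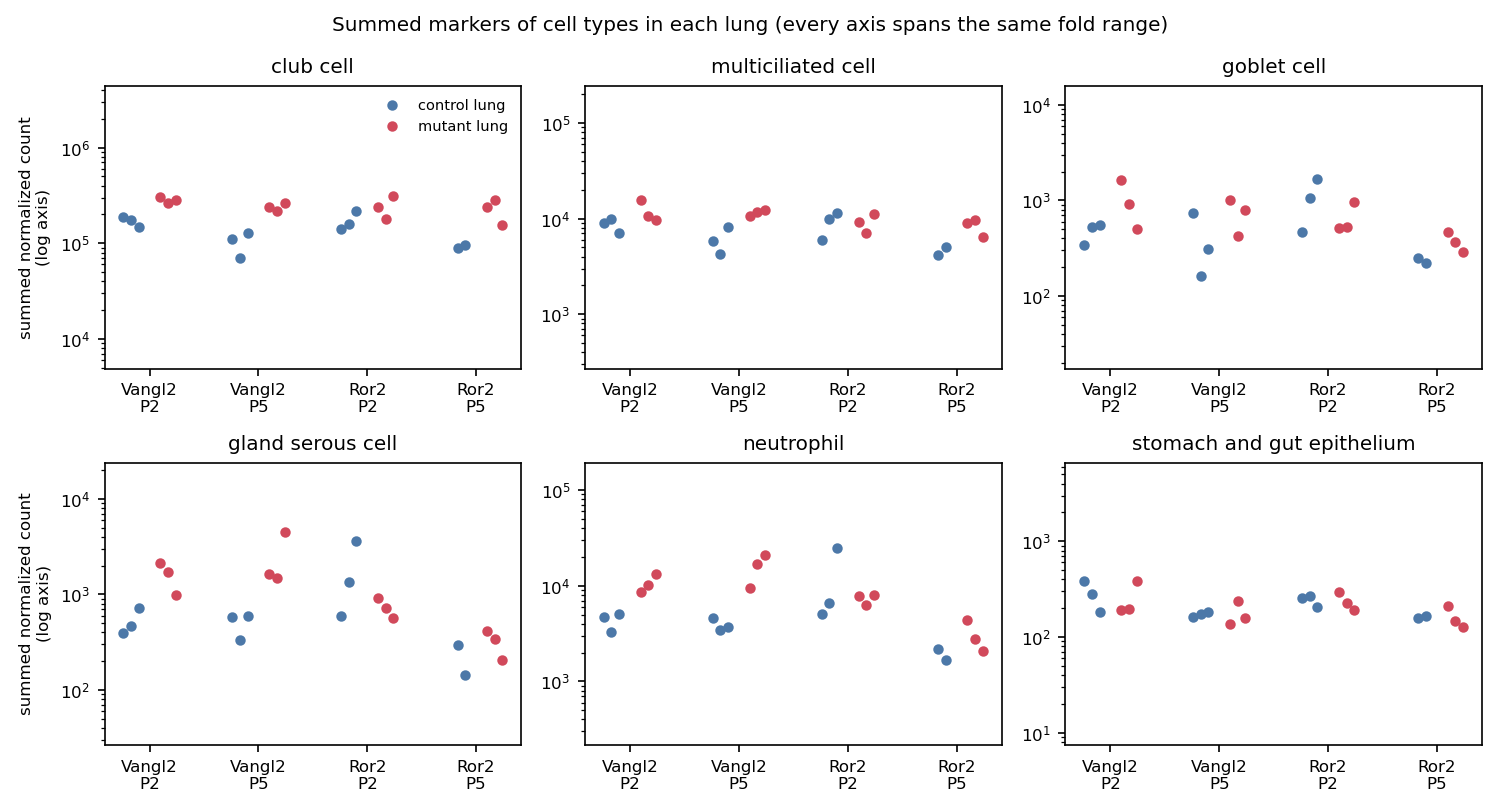
Summed normalized counts (log axis, spanning the same fold range in every panel) of markers of 6 cell types in each lung, control lungs in blue and mutant lungs in red, without lungs in which a marker was set to missing. Club and multiciliated sums differ by less than 10-fold over all lungs, where *Scgb3a1* spanned 10167-fold, and the gland serous and neutrophil sums of the *Ror2* P2 set are highest in a control lung.

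Other genes of mucosal defence were tested across the whole table. Of 112 listed, 106 were in the tables and 66 to 73 were expressed enough to test. The lists were chosen with earlier results of these data known. Counts of listed genes, here and below, therefore carry no weight of their own, also where the share of all genes is given. In *Vangl2* mutants at P2, 10 of 73 rose and 0 fell (limma, Benjamini-Hochberg adjusted p under 0.05), where 1.5% of all 17448 genes rose and 2.09% fell. Of the 73, 60 had a positive log2 fold change and the median was 0.65. Antimicrobial and antiprotease secretions made up 6 of the 10. *Lcn2*, which encodes a siderophore-binding protein, was counted at 1638, 1031 and 1037 in controls and at 17109, 3036 and 10614 in mutants (log2 fold change 2.77, standard error 0.56, limma adjusted p = 0.0411). *Foxa3*, a transcription factor of goblet cells, went from 1.05, 1.90 and 2.87 to 26.9, 16.7 and 10.2 (2.64, standard error 0.49, limma adjusted p = 0.0342). *Cxcl17* was at 81.1, 124 and 89.1 against 874, 390.4 and 452 (2.46, standard error 0.32, limma adjusted p = 0.0265). The other 7 were *Retnla*, the iron-binding *Ltf*, the peptidoglycan-binding *Pglyrp1*, the lung collectin *Sftpd*, the membrane mucins *Muc4* and *Muc1* and the lipopolysaccharide-binding *Lbp*, at log2 fold changes of 2.20 to 0.82. The count rested on single lungs. It was 0 without control replicate 2 or control replicate 3, 3 without control replicate 1 or mutant replicate 2, and 4 without mutant replicate 1. *Lcn2*, *Ltf* and *Pglyrp1* are also known as neutrophil granule genes, and the neutrophil sums given above moved in the same direction.

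Among the largest changes that did not pass in that set was *Ccl20*, a chemokine for lymphocytes and dendritic cells, at 1.05, 1.90 and 5.75 in controls against 46.5, 15.7 and 1063 in mutants (limma adjusted p = 0.0977). At P5 in *Vangl2* mutants 3 of 70 rose, *Pglyrp1*, *Lcn2* and the antiprotease *Slpi*, and 0 fell, where 0.534% of all 17410 genes rose and 0.0287% fell. *Slpi* was counted at 123, 116 and 93.7 against 346, 347 and 442 (1.76, standard error 0.20, limma adjusted p = 0.0148). The median log2 fold change was 0.98, and 61 of 70 were positive. Deviations of lungs sharing a replicate number were correlated in this set. With that number as a block 21 of the 70 rose, the 3 included, and 1558 of all 17410 genes were called in either direction. The pairs were taken from these same data, since the labels name no litter. Without mutant replicate 1 or mutant replicate 3 the count was 0, and it was 1 without control replicate 2 and 5 without mutant replicate 2. The chitinase-like *Chi3l3* (3.38, limma adjusted p = 0.0542), *Chi3l1* (3.31, 0.0747) and *Cxcl17* (3.13, 0.0604) had larger changes that did not pass.

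In *Ror2* mutants at P2, 0 of 72 passed (0% of 17541 genes rose and 0% fell by limma), and 35 were positive with a median of -0.01. An unadjusted limma p under 0.05 was found for 11 of the 72 and for 3380 of all 17541 genes, the larger share. By edgeR on the whole reads 0 passed and by DESeq2 7 did, where DESeq2 called 782 genes in all. The largest differences were of *Ern2*, an endoplasmic reticulum stress sensor of mucous cells, at 7.22, 53.3 and 45.6 in controls against 3.38, 2.84 and 0 in mutants (limma adjusted p = 0.203), and of *Agr2*, a disulfide isomerase needed to make mucins, at 23.7, 346 and 546 against 34.9, 25.6 and 5.25 (limma adjusted p = 0.230). Their control replicate 1 was low, as it was for *Muc5b*. Of 10 mucin processing and goblet genes tested there, 1 was positive, against 11 of 12 in the *Ror2* set at P5. At P5 in *Ror2* mutants 1 of 66 rose and 0 fell, where 0.0582% of 17179 genes rose and 0.064% fell. It was *Retnla*, at 404, 231 and 255 in controls and 4025, 5127 and 2124 in mutants (3.61, standard error 0.33, limma adjusted p = 0.0310), and it did not pass without control replicate 2, control replicate 3 or mutant replicate 2. The median was 0.37 and 51 were positive. *Cxcl17* was at 14.1 and 21.8 against 377, 526 and 146 (4.06, limma adjusted p = 0.0690), and *Agr2* was at 4.66, 7.03 and 8.93 against 26.4, 37.6 and 25.8 (1.99, limma adjusted p = 0.0863).

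**Figure D5:**
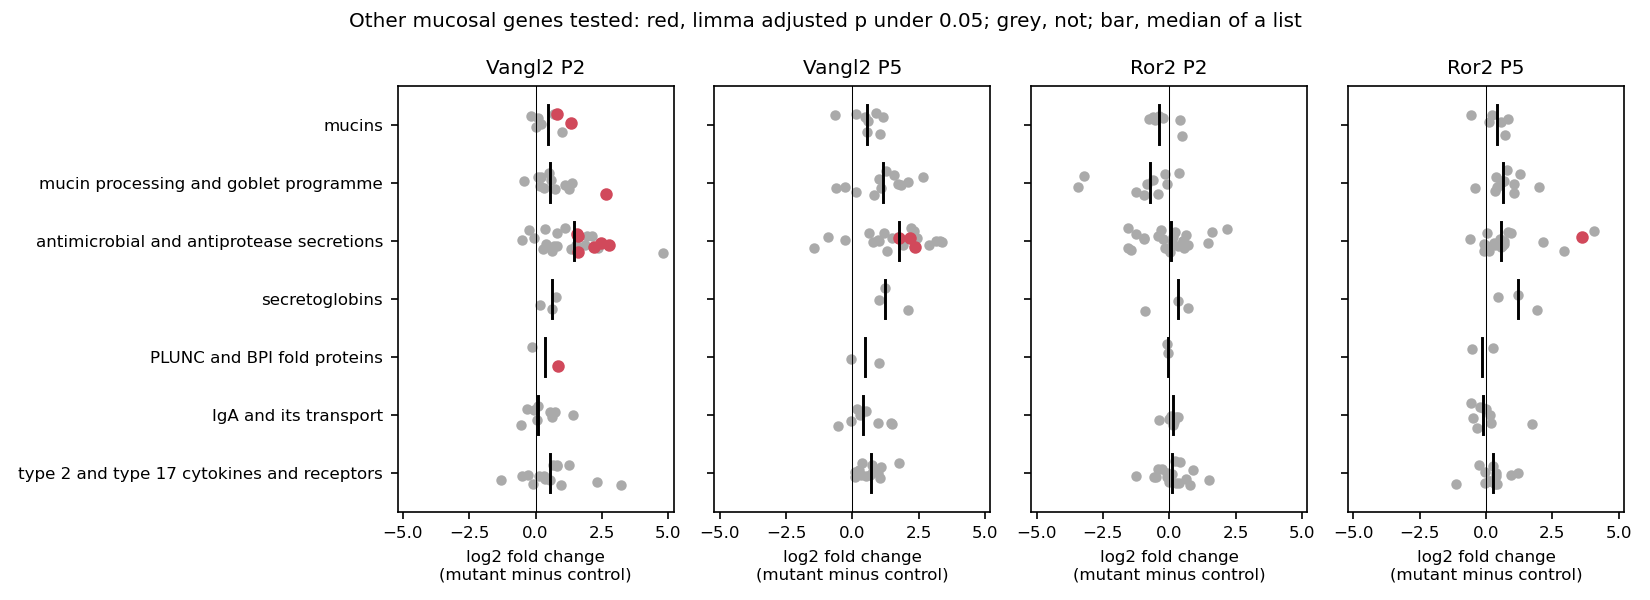
Log2 fold change, mutant minus control, of each other mucosal gene tested, by list (rows) and set (panels), in red where limma's adjusted p was under 0.05 and in grey otherwise, with a bar at the median of each list. The red points number 10, 3, 0 and 1 from left to right and all lie above 0, and the medians of the mucin and goblet lists are below 0 only in the *Ror2* set at P2.

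A test of whether the *Vangl2* and *Ror2* changes differed was made for the same mucosal genes over the 12 lungs of an age. At P2 none of 69 passed, and 0% of 17137 genes had a difference in either direction. An unadjusted limma p under 0.05 was found for 20 of the 69 and for 788 of all 17137 genes. At P5 none of 62 passed, where 0.0118% of 16887 genes had a higher change in *Vangl2* mutants and 0% a lower. There 10 of the 62 and 798 of all 16887 genes had an unadjusted limma p under 0.05. At P2 the difference was positive for 53 of 69 genes, with a median of 0.69, and the largest were those of *Ern2* (4.52, standard error 1.65, limma adjusted p = 0.946) and *Agr2* (4.48, standard error 1.47, limma adjusted p = 0.946). For IgA itself and the genes of its transport other than *Pigr*, the median log2 fold change was 0.09 and 0.39 in *Vangl2* mutants at P2 and P5 and 0.12 and -0.12 in *Ror2* mutants, with 0 of 8 or 9 genes passing in each set.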

How the data were processed

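RNA of 24 left lung lobes was measured by RNA-seq. Each value came from a lobe of its own, so lungs were treated as separate mice. Pooling is not stated in the labels. The authors deposited 4 tables of 23420 genes with a normalized signal per lung, the count divided by a size factor, made with DESeq2 on mm10 per the submitters' processing notes. The aligner, counter and annotation are not given in the sources used here. Columns of the authors' own comparisons (mean, log2 fold change, standard error, statistic, p and adjusted p) were not used. Dividing by the smallest step of a lung gave whole reads (tolerance 0.02) for 100% of values in 21 lungs, and in the other 3 the step was too near 1 to tell.

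In the *Ror2* set at P5, control replicate 1 was set to missing on chromosomes 5, 6, 7, 8, 9 and X (8072 genes), and limma then fitted 2 controls. limma 3.58.1 (lmFit, eBayes with trend, R 4.3.3) was fitted to log2(normalized count + 1) of genes at 1 or more in at least 3 lungs of a set, with Benjamini-Hochberg adjustment over all genes and a threshold of 0.05. The standard errors given for the 7 genes are from the lungs of the 2 groups alone. The design allowed for raw counts, which the tables do not hold. edgeR 4.0.16 and DESeq2 1.42.0 were run on the whole reads of the P2 sets. Same-numbered lungs of the *Vangl2* set at P5 had correlated deviations (0.38, 0.34 and 0.24), so their numbers were taken as pairs from the data. The labels name no litter. Scripts were tested on simulated data.

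The 7 genes and all gene lists were chosen with earlier results of these data known. The mucosal genes named are those with the largest log2 fold change among up to 10 called per comparison, and up to 4 of the largest not called. For the 6 of them tested in all 4 sets, the 3 nearest genes in pattern were named. *Bpifa1* was left out there.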

Additional observations from a re-analysis of the deposited data

Results flagged for a closer look

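The P2 changes of 5 genes ran in opposite directions in the *Vangl2* and the *Ror2* mutants, with every *Vangl2* mutant lung above the mean of its controls and every *Ror2* mutant lung below the mean of its own, on the log2 scale. The change in *Vangl2* mutants minus that in *Ror2* mutants was 6.87 for *Muc5b*, 6.34 for *Reg3g*, 5.72 for *Scgb3a1*, 5.02 for *Tff2* and 4.74 for *Bpifb1*. The smallest of the *Ror2* deviations was that of *Bpifb1* in mutant replicate 2, at -0.01 on the log2 scale. These differences were not tested, since the genes were chosen on the changes themselves. The share of all genes with such a pattern was not counted, so the number of genes carries no weight of its own. The genotype field of these *Ror2* mutants names the other gene. For the same genes, control replicate 1 of each P2 set lay below all 3 mutants of its set, except that for *Bpifb1* and *Scgb3a1* the other *Vangl2* controls did so too.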

How the results depend on the processing

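Of 287 values of the log2 fold changes of the 7 genes under alternatives, 284 moved by less than 1 pooled SD. The 3 others were *Bpifa1* with a pseudocount of 5 (1.69 and 2.46 in *Vangl2* mutants at P2 and P5, 0.99 in *Ror2* mutants at P5). The sign changed in 4, all in *Ror2* mutants at P2. This tally carries little weight, because the pooled SD was wide, up to 3.67 (*Reg3g*, *Ror2* set at P2). In *Vangl2* mutants at P2, *Reg3g* fell from 3.41 to 1.08 without control replicate 1, within its pooled SD of 2.92. The values entered for the replicate block were computed without the block and equalled the main ones. Counts of calls by limma depended on single lungs. Leaving out each lung, genes called ranged from 1 to 2333 in *Vangl2* mutants at P2 (626 with all lungs), 0 to 54 at P5 (98), 0 to 859 in *Ror2* mutants at P2 (0) and 0 to 790 at P5 (21), and from 0 to 4 for the difference at P5 (2). Other mucosal genes called ranged from 0 to 13, 0 to 5, 0 to 3, 0 to 9 and, for the difference at P5, 0 to 1. DESeq2 called 1991 genes and 18 mucosal genes in *Vangl2* mutants at P2 and 782 and 7 in *Ror2* mutants at P2, where edgeR called 641 and 9, and 0 and 0. With the replicate block, 1558 genes and 21 mucosal genes were called in *Vangl2* mutants at P5, and 1 gene in *Ror2* mutants at each age. In the 3 sets other than *Vangl2* at P5 the lungs shared only a number, with same-number correlations of -0.09 to 0.21, and in the *Ror2* set at P2, where 2 of 3 lungs matched best with their own number, this is a hint from the data only. With control replicate 1 of the *Ror2* set at P5 as deposited, 1 gene and 0 mucosal genes were called there, and 0 genes for the difference. The causes were not tested. The other pseudocounts, filters and scaling left all of these counts within 1.5 times. *Bpifa1* and, in the *Ror2* mutants, *Tff2* rest on few reads.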
